A study of Homo sapiens with 14 samples.

Results

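The AP-1 family genes were followed through a short time course of 2 compounds in MDA-MB-231, an established line of human triple-negative breast cancer cells. The members were chosen by name as FOS, FOSB, FOSL1, FOSL2, JUN, JUNB, JUND and ATF3, which are 8 of the 60876 genes with a transcript in the files. All 8 had enough reads to be tested, among 15426 genes tested in all. They were chosen with earlier results of these data known, so counts of called members beside the share of all genes are a description. The cells received 5 µM CX-5461, an inhibitor of RNA polymerase I, or 5 µM RBI2, a small molecule under study as an inhibitor of ribosome biogenesis, and were collected after 10, 30 or 120 min. The control received neither compound by the study's methods, while its results speak of a DMSO control. The 7 groups of 2 libraries each thus share the cell line and differ in compound and time. The labels do not say whether the 2 libraries of a group came from separate cultures, so the p-values measure only the spread between these libraries. Times are those of the sample labels. The submitters' own file naming carries smaller numbers in the same order, so that a statement on a time holds for the label.

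AP-1 is a pair of basic leucine zipper (bZIP) proteins that binds DNA as a dimer. FOS proteins need a JUN protein as partner, JUN proteins can also pair with each other, and ATF3 pairs with JUN proteins or with itself. The dimers bind the element TGACTCA or the related cyclic AMP response element TGACGTCA, and the makeup of the pair sets which element is preferred. FOS, FOSB, JUN, JUNB and ATF3 are immediate early genes, whose transcription starts without new protein synthesis and whose mRNAs are short-lived. FOSL1, which encodes FRA-1, is known for its high level in mesenchymal breast cancer lines.

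The promoters of 4 members that changed with CX-5461 are shown, since FOS, FOSB and JUNB lay at their highest and JUN at its lowest in the same libraries. The windows are the 250 bases before the start of the gene in RefSeq, written 5′ to 3′ on the strand of the gene in GRCh38.p14. The letters searched on both strands were TGACTCA, TGACNTCA and TGACGT, the TATA letters TATAAA, the box CCAAT and the CArG box, and every match is in capitals. TGACGT is also part of TGACGTCA, so a stretch can match both. FOS lies on the plus strand with its window at chr14:75278578-75278827, FOSB on the plus strand at chr19:45467746-45467995, JUNB on the plus strand at chr19:12791236-12791485, and JUN on the minus strand at chr1:58784048-58784297.
FOS: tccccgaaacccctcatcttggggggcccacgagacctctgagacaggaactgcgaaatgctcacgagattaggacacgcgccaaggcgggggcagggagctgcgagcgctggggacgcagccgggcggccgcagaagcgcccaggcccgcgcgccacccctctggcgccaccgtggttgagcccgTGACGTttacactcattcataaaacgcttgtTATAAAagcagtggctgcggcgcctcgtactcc
FOSB: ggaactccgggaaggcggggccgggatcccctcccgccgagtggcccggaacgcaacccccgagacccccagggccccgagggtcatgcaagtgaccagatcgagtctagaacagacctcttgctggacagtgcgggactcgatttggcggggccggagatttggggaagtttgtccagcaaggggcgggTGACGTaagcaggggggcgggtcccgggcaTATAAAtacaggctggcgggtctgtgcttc
JUNB: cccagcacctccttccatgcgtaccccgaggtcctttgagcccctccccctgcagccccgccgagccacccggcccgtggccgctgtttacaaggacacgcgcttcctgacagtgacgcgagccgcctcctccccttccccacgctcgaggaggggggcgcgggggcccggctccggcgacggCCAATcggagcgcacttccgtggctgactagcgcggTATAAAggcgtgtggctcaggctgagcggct
JUN: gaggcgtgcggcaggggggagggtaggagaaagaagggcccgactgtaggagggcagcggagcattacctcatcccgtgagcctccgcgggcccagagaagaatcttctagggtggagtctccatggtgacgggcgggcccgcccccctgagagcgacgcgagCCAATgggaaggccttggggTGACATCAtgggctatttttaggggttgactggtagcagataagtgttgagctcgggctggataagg

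In the FOS window TGACGT stood 64 to 59 bases and TATAAA 33 to 28 bases before the start. FOSB had the same letters at nearly the same places, with TGACGT at 60 to 55 and TATAAA at 30 to 25 bases before the start. JUNB had TATAAA at 31 to 26 bases and CCAAT at 67 to 63 bases, without TGACGT in this window. JUN had neither TATAAA nor TGACGT, but TGACATCA at 67 to 60 bases and CCAAT at 87 to 83 bases before its start. Of the members that are not printed, FOSL2 had TGACGT at 66 to 61 bases. JUND had TGACGTCA at 200 to 193 bases, TGACGT on the other strand at 87 to 82 bases and CCAAT at 74 to 70 bases. ATF3 had TGACATCA at 123 to 116 bases and CCAAT on the other strand at 25 to 21 bases in its first window, and TATAAA at 230 to 225 bases in its second. Neither ATF3 window lies at the start of the transcript ATF3-202, which held a median of 69.7% of the TPM of ATF3 (0% to 98.4% by library). TGACTCA and the CArG box had no match in the 8 windows of the 7 members in the table, where ATF3 has 2 windows and FOSL1 has no entry. Among all 35116 windows, 7.1% held TGACGT, 6.87% TGACNTCA, 10.7% TATAAA, 32% CCAAT, 4.2% TGACTCA and 1.16% the CArG box. These matches describe the letters in the windows and were not tested for binding or use. Bases outside the windows were not searched. The lack of a match therefore does not show whether FOS or another member has a CArG box or TGACTCA further from its start.

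Each library held between 14112299 and 24849354 estimated reads over all transcripts, with a median of 16305236. The mitochondrial share of reads was 20.6% in control replicate 2 and 8.14% to 11.3% elsewhere. The control pair was also the widest apart, with 1412 genes more than 2-fold apart between its libraries against 461 to 629 in the other pairs. The markers of a mesenchymal-like line were high in every library (5 of 5, summed level 6214 to 7417 CPM, the read count scaled to library size with TMM). Of 6 luminal and epithelial markers, which summed to between 70.1 and 93.5 CPM, PGR was at 0, ESR1 reached 0.236 CPM and CDH1 reached 0.295 CPM. The other 3 were detected in every library, ERBB2 between 52.5 and 77.9, EPCAM between 9.17 and 14.3 and GATA3 between 3.64 and 6.55 CPM. Fibroblast markers summed to between 2.97 and 5.07 CPM, mostly COL1A1, and blood cell markers to at most 0.145 CPM. These are bulk libraries, in which fewer cells with a transcript and less of it per cell cannot be told apart.

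FOS, the founding partner of JUN in AP-1 (ENSG00000170345, chr14:75278826-75282230, plus strand), was among the scarce members, with 28 to 185 estimated reads per library. It had 2.30 and 2.24 CPM in the control, and 9.97 and 9.23 CPM with CX-5461 at 10 min. With CX-5461 it then had 2.60 and 2.42 CPM at 30 min and 4.48 and 5.27 CPM at 120 min. With RBI2 it had 3.64 and 3.77 CPM at 10 min, 2.43 and 2.51 CPM at 30 min, and 3.19 and 3.12 CPM at 120 min. The CX-5461 libraries of 10 min were the highest of the 14, followed by those of CX-5461 at 120 min and RBI2 at 10 min, with no overlap between these groups.

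FOSB (ENSG00000125740, chr19:45467995-45475179, plus strand), the close relative of FOS, had 19 to 200 estimated reads. Its levels were 1.62 and 1.92 CPM in the control, and 10.8 and 9.67 CPM with CX-5461 at 10 min. In the other 5 groups they lay between 1.21 CPM (CX-5461 at 30 min) and 2.49 CPM (CX-5461 at 120 min), around the control. The whole gene lies within the locus of ERCC1, a DNA repair gene on the opposite strand with a mean of 1591 reads. The library kit keeps the strand, but whether the assignment used it is not given in the sources used here.

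ATF3 (ENSG00000162772, chr1:212565334-212620777, plus strand) encodes a stress-induced bZIP factor. It had 5.84 and 4.47 CPM in the control, and 17.6 and 15.3 CPM with CX-5461 at 10 min. With CX-5461 at 120 min it had 9.37 and 7.36 CPM. The other 4 groups lay between 5.98 and 8.22 CPM, above both control libraries.

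JUNB (ENSG00000171223, chr19:12791486-12793315, plus strand), a JUN protein that often opposes JUN, had control values that were far apart, 19.8 and 12.1 CPM. With CX-5461 at 10 min it had 35.8 and 32.1 CPM, the highest of the 14 libraries. The other 5 groups lay between 20.1 and 26.2 CPM. The gene lies within the locus of HOOK2 on the opposite strand, which had a mean of 89.3 reads against 407 of JUNB. JUND (ENSG00000130522, chr19:18279694-18281622, minus strand), the JUN gene with the steadiest transcription in most cells, had 20.5 and 15.8 CPM in the control and 27.2 and 23.1 CPM with CX-5461 at 10 min. The other 5 groups lay between 19.3 and 25.8 CPM, a range that crosses that of CX-5461 at 10 min.

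JUN (ENSG00000177606, chr1:58776845-58784048, minus strand), the main partner of FOS proteins, moved the other way. It had 113 and 102 CPM in the control and 44.5 and 43.5 CPM with CX-5461 at 10 min, the lowest of all libraries. With CX-5461 it had 99.1 and 99.0 CPM at 30 min and 78.5 and 78.9 CPM at 120 min. With RBI2 it lay between 90.9 CPM (120 min) and 112 CPM (30 min).

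FOSL1 (ENSG00000175592, chr11:65892049-65900573, minus strand) was by far the most abundant member, with 6507 to 15392 estimated reads. It had 696 and 938 CPM in the control and 377 and 362 CPM with CX-5461 at 10 min. The remaining groups lay between 590 CPM (RBI2 at 10 min) and 832 CPM (RBI2 at 120 min), so that none of their libraries overlapped those of CX-5461 at 10 min. FOSL2 (ENSG00000075426, chr2:28392448-28417317, plus strand), which encodes FRA-2, had 154 and 171 CPM in the control and 115 and 120 CPM with CX-5461 at 10 min. Its other groups lay between 131 CPM (CX-5461 at 30 min) and 192 CPM (RBI2 at 10 min).

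**Figure D1:**
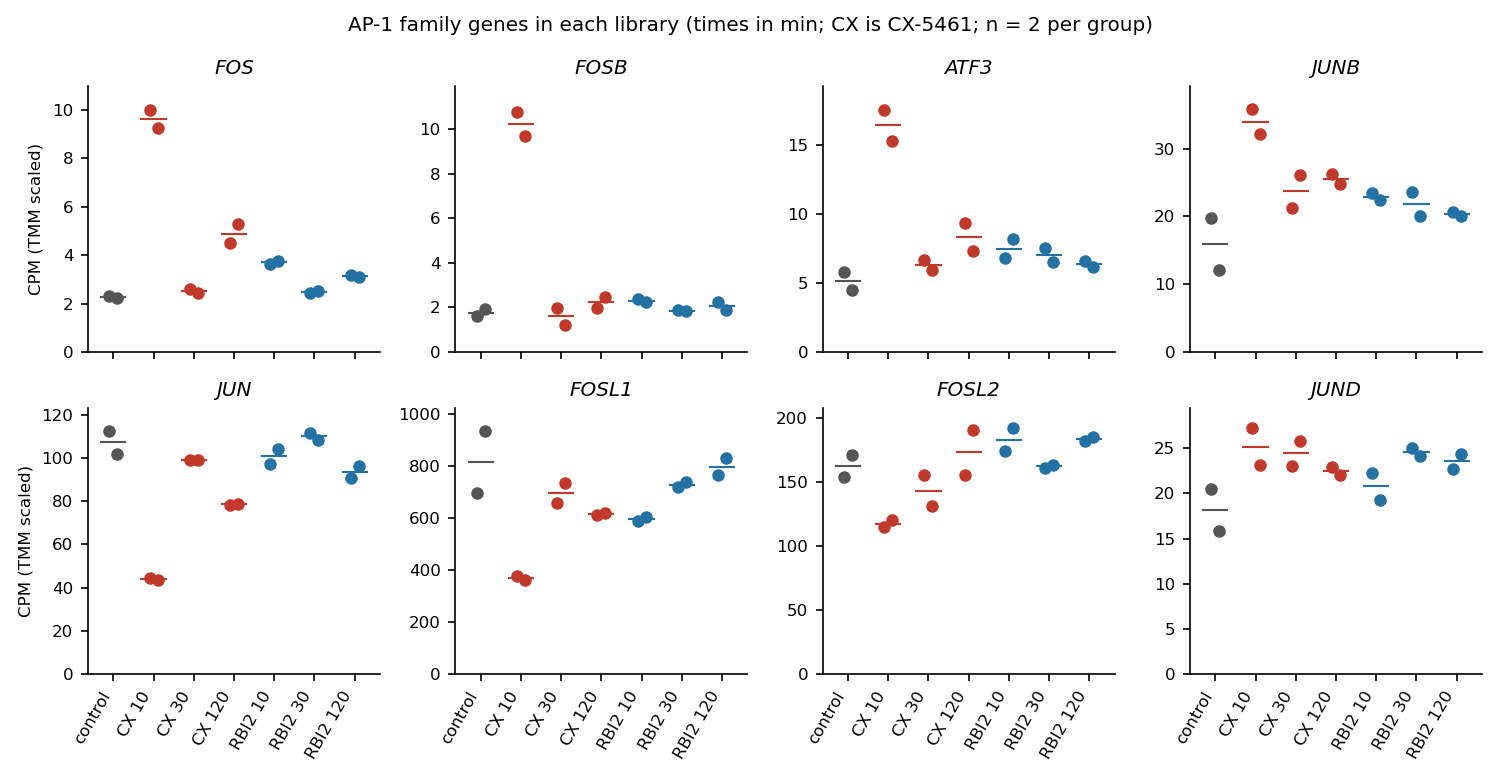
Expression of the 8 AP-1 family genes in each library, in CPM after TMM scaling on a linear axis from 0 (points are libraries, lines are means of 2, times in min). The CX-5461 libraries of 10 min are the highest for FOS, FOSB, ATF3 and JUNB and the lowest for JUN, FOSL1 and FOSL2.

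The first question was whether each compound changed the family against the control. With CX-5461 at 10 min, 6 of the 8 genes changed, where 1.67% of all genes tested did. A gene was called when its Benjamini-Hochberg adjusted p over all genes tested, from the quasi-likelihood test of edgeR, was under 0.05 and its log2 fold change reached 1 in either direction. FOSB, FOS, ATF3 and JUNB rose (4 of 8, against 0.771% of all genes tested), and JUN and FOSL1 fell (2 of 8, against 0.901%). For all 8 members the 2 libraries of CX-5461 at 10 min lay on one side of both control libraries, as they did for 47% of all genes tested. The median log2 fold change was 0.77 over the 8 members and -0.04 over all genes tested. The SE and intervals printed here come from the F statistic, and those of FOS and FOSB can be narrower than their p-values imply. FOSB rose by a log2 fold change of 2.54 ± 0.23 (SE; 95% interval 2.04 to 3.03; adjusted p = 1.1e-04 from edgeR). FOS rose by 2.08 ± 0.15 (1.75 to 2.41; adjusted p = 2.3e-05). ATF3 rose by 1.66 ± 0.18 (1.27 to 2.06; adjusted p = 3.9e-04).

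The other changes at 10 min of CX-5461 were smaller. JUNB rose by 1.08 ± 0.19 (95% interval 0.67 to 1.50; adjusted p = 0.00794 from edgeR). JUN fell by 1.28 ± 0.08 on the log2 scale (log2 fold change -1.46 to -1.11; adjusted p = 5.2e-06), the lowest adjusted p of the family. FOSL1 fell by 1.14 ± 0.12 (-1.40 to -0.88; adjusted p = 3.0e-04). FOSL2, at -0.47 (adjusted p = 0.037, and 0.0987 without control replicate 2), passed on p but not on fold, as 4.76% of all genes tested passed on p alone. JUND, at 0.47 (adjusted p = 0.0844), passed neither, and its value was -0.04 when GC content and length were corrected for.

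The calls of JUNB and FOSL1 rest in part on control replicate 2. Without it the log2 fold change of JUNB was 0.78 and that of FOSL1 -0.91, both under the limit on the fold, and 4 members were called. FOS (2.06), FOSB (2.66), ATF3 (1.49) and JUN (-1.36) were called without that library too. JUNB was also under the limit when GC content and length were corrected for (0.73) and with an offset for transcript length (0.97), and its adjusted p was 0.0988 without replicate 1 and 0.0535 without replicate 2 of CX-5461 at 10 min. When only the 4 libraries of this comparison entered the model, no member passed, at adjusted p from 0.0942 (FOSB) to 0.596 (JUND), with fold changes near those of the pooled model (FOS 2.09, JUN -1.27).

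With CX-5461 at 30 min, 0 of the 8 members were called, as were 0% of all genes tested, by edgeR, and DESeq2 called 0 members. Here 2 members had an unadjusted p under 0.05, as did 22.7% of all genes tested. The log2 fold changes ran from -0.23 (FOSL1) to 0.56 (JUNB). With CX-5461 at 120 min only FOS was called, at 1.10 ± 0.15 (95% interval 0.76 to 1.43; adjusted p = 0.0252 from edgeR), where 0.0454% of all genes tested passed. This call depended on the setting. It was lost when any 1 of the 14 libraries other than control replicate 1 was left out, among them control replicate 2 (adjusted p = 0.103) and either CX-5461 library of 120 min (0.0758 and 0.376), and with the offset for transcript length (log2 fold change 0.56). DESeq2 gave FOS a log2 fold change of 1.07 but no adjusted p, and called 0 of the 3 members to which it gave one. JUN was at -0.45 and FOSL1 at -0.41 in this comparison, with adjusted p of 0.0908 and 0.304.

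With RBI2 0 of the 8 members were called at 10, 30 or 120 min by edgeR, where 0.0778%, 0.0389% and 1.83% of all genes tested passed. DESeq2 called 0 of 8, 0 of 5 and 0 of 8 members with an adjusted p. At an unadjusted p under 0.05, 4 members passed at 10 min, 3 at 30 min and 3 at 120 min, against 12.8%, 25.7% and 35.8% of all genes tested. The highest value at 10 min was that of FOS, 0.71 (95% interval 0.36 to 1.05; adjusted p = 0.149), with both libraries above both control libraries. FOSL1 (-0.45, interval -0.71 to -0.19), ATF3 (0.53, 0.13 to 0.94) and JUNB (0.51, 0.09 to 0.93) also had intervals that leave out 0, at adjusted p of 0.19, 0.297 and 0.316 from edgeR. Those of JUN (-0.26 to 0.08), FOSB (-0.15 to 0.92), FOSL2 (-0.07 to 0.42) and JUND (-0.12 to 0.50) included 0. The intervals of FOS and FOSB can be narrower than their p-values imply. FOS was at 0.12 at 30 min and 0.47 at 120 min (adjusted p = 0.763 and 0.118). All comparisons with the control share its 2 libraries.

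**Figure D2:**
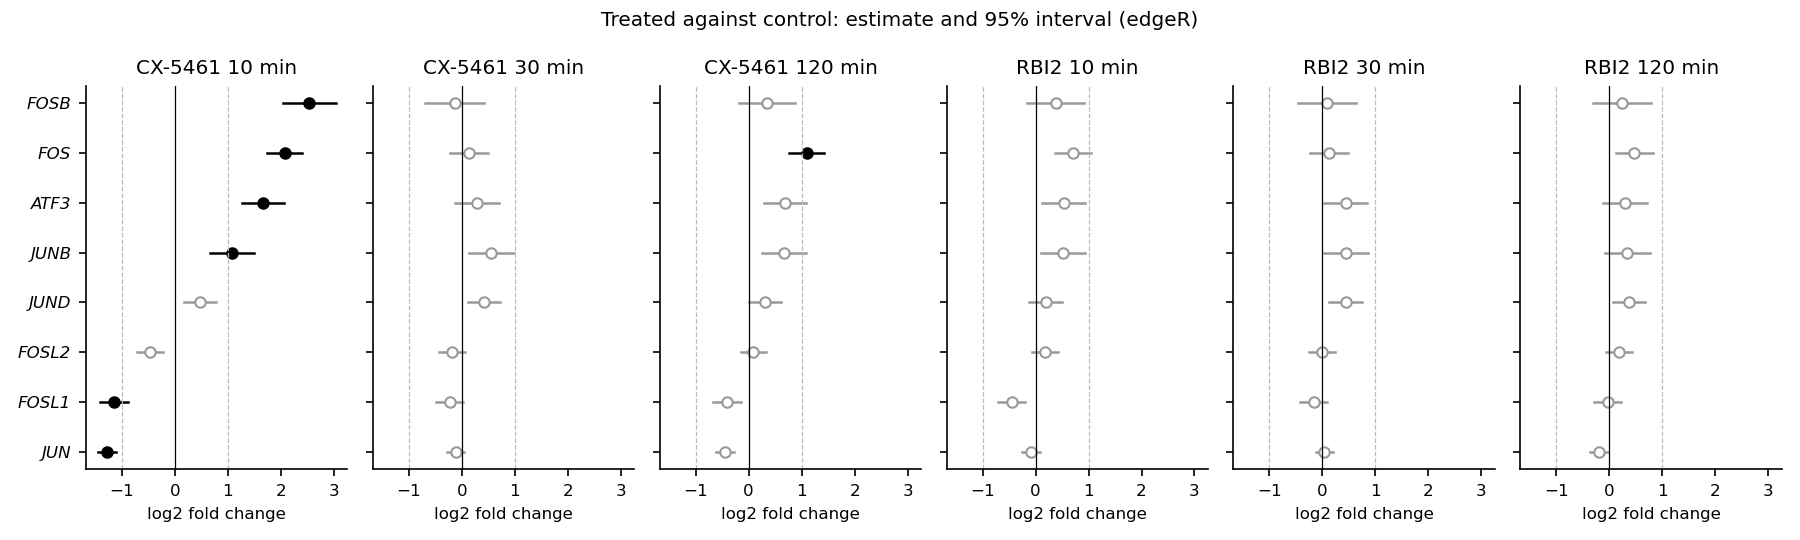
Log2 fold change against the control with its 95% interval from edgeR, for the 8 genes in the 6 treated groups (filled points passed adjusted p and fold, dashed lines mark a log2 fold change of 1 in either direction). In the group of CX-5461 at 10 min 6 points are filled, and FOS alone is filled in the group of CX-5461 at 120 min. Intervals of FOS and FOSB can be narrower than their p-values imply.

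The second question was whether the compounds differed from each other at the same dose and time. The folds of such a comparison use no control library, while the spread behind its p-values is estimated over all 14 libraries, the control pair included. The 8 genes were compared at 3 times, with p-values adjusted over all genes tested. At 10 min, 4 of the 8 were called, where 1.12% of all genes tested passed (0.434% with RBI2 lower and 0.681% with RBI2 higher). The libraries of the 2 compounds did not overlap for any of the 8 members, as for 57.3% of all genes tested. Relative to CX-5461, RBI2 was lower for FOSB by a log2 fold change of -2.15 ± 0.22 (95% interval -2.63 to -1.68; adjusted p = 2.8e-04 from edgeR), for FOS by -1.37 ± 0.14 (-1.68 to -1.06; adjusted p = 3.1e-04) and for ATF3 by -1.13 ± 0.17 (-1.51 to -0.76; adjusted p = 0.00401). JUN was higher with RBI2 by 1.19 ± 0.08 (1.03 to 1.36; adjusted p = 1.1e-05).

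In the same comparison FOSL1 (0.69, adjusted p = 0.00838) and FOSL2 (0.64, adjusted p = 0.00958) passed on p but not on fold, where 3.14% of all genes tested passed on p alone. JUNB was at -0.57 (95% interval -0.97 to -0.16; adjusted p = 0.154) and JUND at -0.28 (-0.58 to 0.02; adjusted p = 0.403). With only the 4 libraries of this comparison in the model FOS, FOSB, ATF3 and JUN were called too. ATF3 was not called without CX-5461 replicate 1 of 10 min or without RBI2 replicate 1 of 10 min (adjusted p = 0.0648 and 0.0699), nor with the offset for transcript length (-0.94).

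At 30 min 0 of the 8 genes were called by edgeR or DESeq2, where 0.013% of all genes tested passed, and none had an unadjusted p under 0.05, which 7.63% of all genes tested had. The log2 fold changes of RBI2 over CX-5461 ran from -0.11 (JUNB) to 0.22 (FOSB), and their 95% intervals together from -0.52 to 0.76. At 120 min 0 were called by either tool, where 1.71% of all genes tested passed, and 4 had an unadjusted p under 0.05, as did 31.5% of all genes tested. On adjusted p alone, which 16.1% of all genes tested passed, FOS was lower with RBI2 (-0.62, 95% interval -0.94 to -0.30, adjusted p = 0.0194), and JUN (0.25, adjusted p = 0.0461) and FOSL1 (0.38, adjusted p = 0.0498) were higher.

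The third question was whether the levels with CX-5461 differed between times. Between 10 and 30 min 4 genes were called, where 0.895% of all genes tested passed (0.499% higher and 0.395% lower at 10 min). At 10 min FOSB was higher by 2.67 ± 0.23 (95% interval 2.17 to 3.17; adjusted p = 9.3e-05 from edgeR), FOS by 1.93 ± 0.15 (1.61 to 2.26; adjusted p = 3.7e-05) and ATF3 by 1.38 ± 0.17 (1.00 to 1.76; adjusted p = 0.00155). JUN was lower at 10 min, at -1.17 ± 0.08 (-1.34 to -1.001; adjusted p = 1.4e-05). FOSL1, at -0.92 (adjusted p = 0.00177), passed on p but not on fold.

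Between 10 and 120 min of CX-5461 only FOSB was called, at 2.19 ± 0.21 (95% interval 1.73 to 2.66; adjusted p = 3.3e-04 from edgeR), where 0.953% of all genes tested passed. FOS (0.98, adjusted p = 0.00351) and ATF3 (0.97, adjusted p = 0.0106) lay just under the limit on the fold, and DESeq2 called both. JUN (-0.84), FOSL1 (-0.74) and FOSL2 (-0.56) passed on p alone, as did 3.21% of all genes tested. Between 30 and 120 min of CX-5461, where 0.013% of all genes tested passed, 0 of 8 members were called by edgeR and 0 of 5 with an adjusted p by DESeq2, and 4 had an unadjusted p under 0.05 with edgeR, as did 19% of all genes tested. FOS was at -0.95 there, with an adjusted p of 0.161. Between the times of RBI2 0 members were called by edgeR, or by DESeq2 among those with an adjusted p (8, 8 and 7), and 2, 1 and 1 had an unadjusted p under 0.05 in the comparisons of 10 with 30 min, 10 with 120 min and 30 with 120 min. Of all genes tested 0.0648%, 0.733% and 0.013% were called there, and 8.98%, 23.9% and 10.2% had such an unadjusted p.

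**Figure D3:**
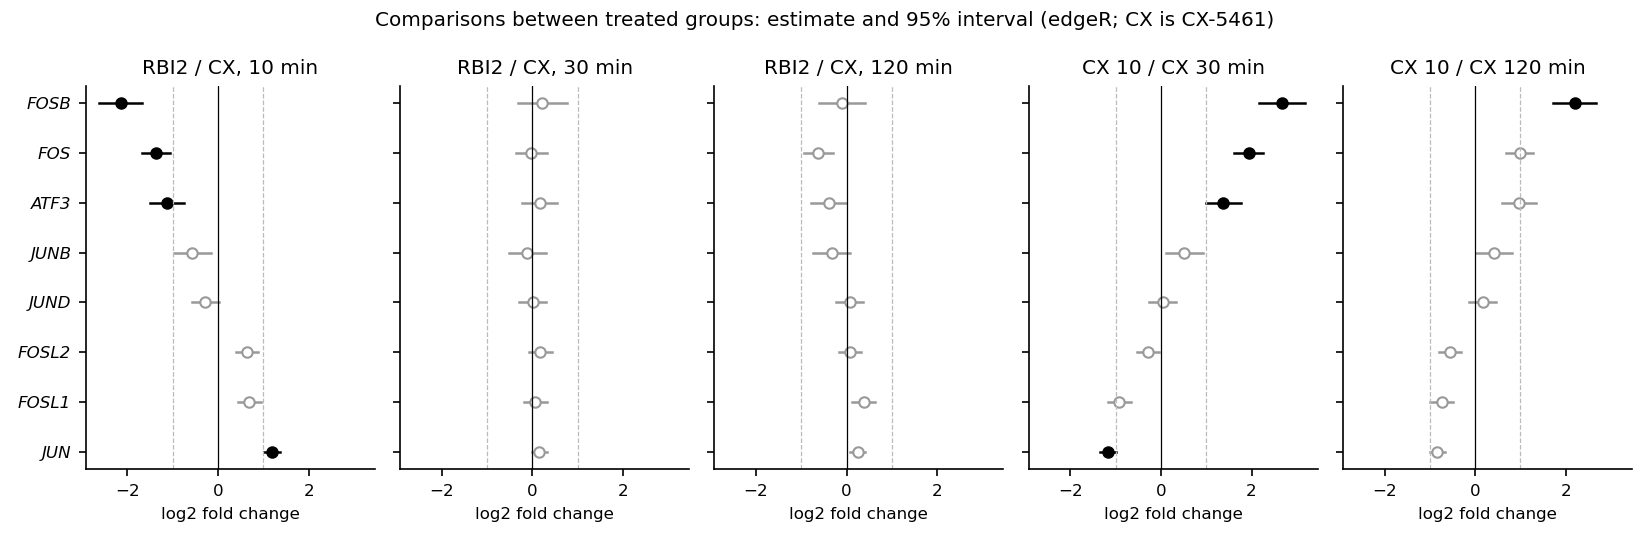
Log2 fold change with its 95% interval from edgeR in comparisons between treated groups, whose intervals share the spread of all 14 libraries (filled points passed adjusted p and fold, dashed lines mark a log2 fold change of 1 in either direction). At 10 min RBI2 was lower than CX-5461 for FOSB, FOS and ATF3 and higher for JUN, and at 30 min no point is filled. Intervals of FOS and FOSB can be narrower than their p-values imply.

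When all 7 groups were tested together, 7 of the 8 genes differed by edgeR's F test, as did 11.1% of all genes tested. The adjusted p was lowest for JUN (6.0e-05) and FOS (7.4e-05), and JUND did not pass (adjusted p = 0.167). JUNB (adjusted p = 0.0445) was lost with DESeq2's size factors and when any single treated library was left out. With the offset for transcript length JUNB and FOSL2 were both lost, which left 5 genes. FOSL2 was also lost without some of the treated libraries. Across the 14 libraries, which share the 7 conditions, log2 CPM of FOS had a Pearson correlation of 0.92 with FOSB, 0.92 with ATF3, -0.95 with JUN and -0.91 with FOSL1. Without the libraries of CX-5461 at 10 min, over 12 libraries, these were 0.67, 0.68, -0.82 and -0.64. Other pairs moved further, such as FOS with FOSL2 from -0.49 to 0.54 and FOSB with ATF3 from 0.90 to 0.37. JUNB with JUND was at 0.75 with and without those libraries. These are descriptions over libraries that share conditions.

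Levels of different genes were compared per length, as TPM, the transcript abundance scaled for length and library. FOSL1 ranked first in every library, with a median of 459 TPM and 70.0% to 83.6% of the summed TPM of the family. The medians of the others were 41.7 for JUN, 34.3 for FOSL2, 18.3 for JUND, 15.6 for JUNB, 5.99 for ATF3, 2.30 for FOS and 0.644 for FOSB. ATF3, FOS and FOSB held the lowest ranks, in this order, in all 14 libraries. JUN moved between rank 2 and rank 5, and JUNB between rank 3 and rank 5, so that the order among JUN, FOSL2, JUNB and JUND was not the same in all libraries. FOS and FOSB thus remained the scarcest members per length also where they were highest, at 6.32 ± 0.26 TPM (SD, n = 2) and 2.85 ± 0.34 TPM, against 263 ± 7.16 TPM of FOSL1 in the same libraries.

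The makeup of the JUN genes differed between groups. In the control JUN held 64.6% ± 1.09 (SD, n = 2) of the summed TPM of JUN, JUNB and JUND, JUNB 15.1% ± 1.26 and JUND 20.3% ± 0.16. With CX-5461 at 10 min the shares were 30.9% ± 1.42 for JUN, 36.1% ± 0.11 for JUNB and 33.1% ± 1.53 for JUND, so that JUN was not in the majority. JUN held 56.3% ± 0.74 with CX-5461 at 30 min and 49.9% ± 2.42 at 120 min. With RBI2 it held 56.0% ± 0.28, 57.4% ± 1.39 and 57.6% ± 2.58 at 10, 30 and 120 min.

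Among the FOS genes FOSL1 kept the majority throughout. Its share was 93.1% ± 0.17 in the control and 88.7% ± 0.29 with CX-5461 at 10 min, and in the other groups it lay between 91.3% and 93.5%. The share of FOS was 0.367% ± 0.11 in the control and 2.13% ± 0.04 with CX-5461 at 10 min. That of FOSB was 0.109% ± 0.02 and 0.959% ± 0.09 in the same groups. The summed TPM of the family was 579 ± 4.93 in the control and 373 ± 14.4 with CX-5461 at 10 min, and without FOSL1 it was 107 ± 16.9 and 110 ± 7.25. These shares were not tested.

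**Figure D4:**
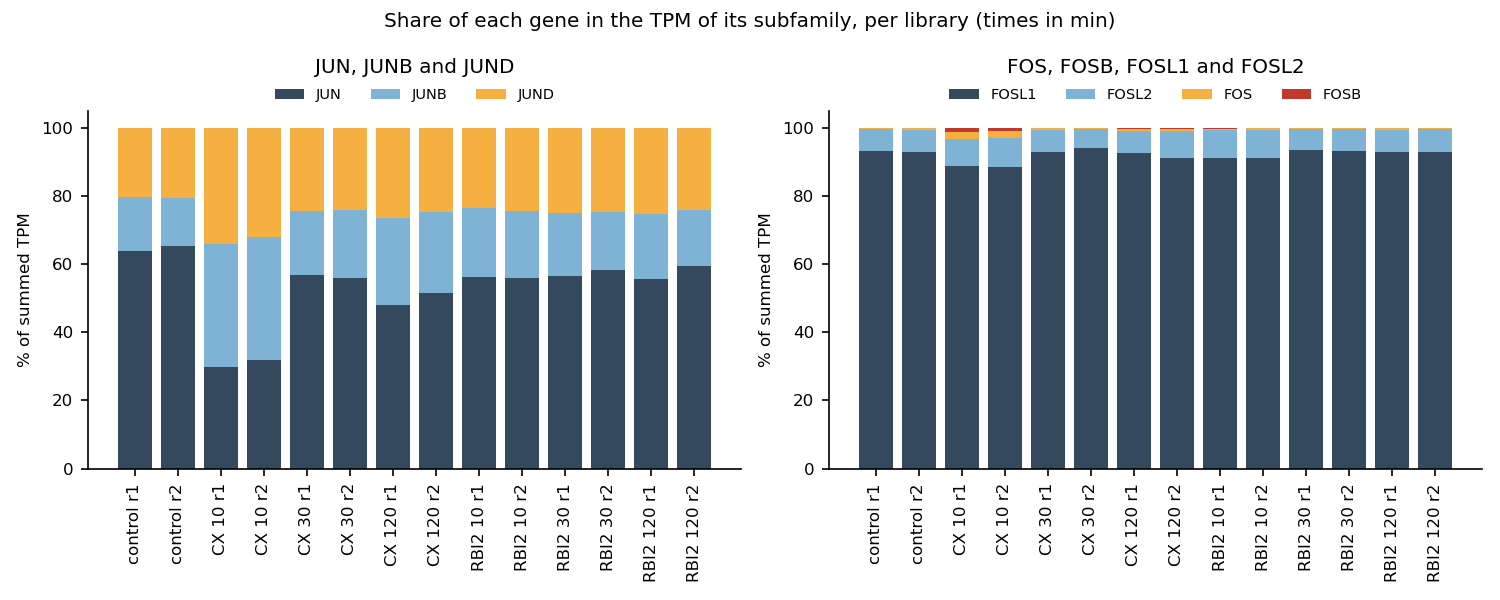
Share of each gene in the summed TPM of JUN, JUNB and JUND (left) and of FOSL1, FOSL2, FOS and FOSB (right), in percent for each library (r1 and r2 are replicates, times in min). On the left JUN is at 64.6% on average in the control and 30.9% with CX-5461 at 10 min, and on the right FOSL1 lies between 88.5% and 94.1% in all libraries.

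The transcripts behind these sums were as follows. JUN was represented by JUN-201 alone, 1 of its 3 annotated transcripts, and JUNB by its single transcript. FOS-201, of 2104 bases, carried 22.4% of the TPM of FOS in control replicate 2 and between 82.8% and 100% in the other libraries. FOSL1-201 carried between 77.1% and 86.9% of the TPM of FOSL1 in all 14. FOSL2 was split mainly between FOSL2-202 (24.0% to 58.1%) and FOSL2-201 (40.0% to 67.9%) in 13 libraries. In control replicate 2 FOSL2-203, of 889 bases, held the largest share (41.6%), ahead of FOSL2-202 (35.0%) and FOSL2-201 (21.8%). For FOSB the transcript with the largest share differed between libraries of the same group, as in CX-5461 at 30 min, where FOSB-201 held 82.2% in replicate 1 and FOSB-202 91.6% in replicate 2. For ATF3 it differed too, as in RBI2 at 120 min, where ATF3-206 held 67.1% in replicate 1 and ATF3-202 98.4% in replicate 2. The splits of FOSB and ATF3 between transcripts are therefore not read here.

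Control replicate 2 stood apart in the transcripts too. Transcripts shorter than 900 bases took 73.4% of the TPM of FOS in this library (8.25 estimated reads, all on FOS-203) against 0% to 14.9% in the others, and 43.2% of that of FOSL2 against 0% to 8.37%. Over all transcripts the share was 57.5% in control replicate 2 and 44.7% to 49.4% in the others. TPM of FOS in the control was accordingly 1.45 and 2.30, while its CPM was 2.30 and 2.24. The called members are given above with and without this library for CX-5461 at 10 and 120 min. Without it 0 members were called against the control with RBI2 at any time or with CX-5461 at 30 min, as with it, and FOS with RBI2 at 10 min was at 0.67. The part of its transcript lengths in these comparisons was tested only by the offset for transcript length, under which FOS at 10 min of CX-5461 was at 1.58, FOSB at 2.16 and ATF3 at 1.28.

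**Figure D5:**
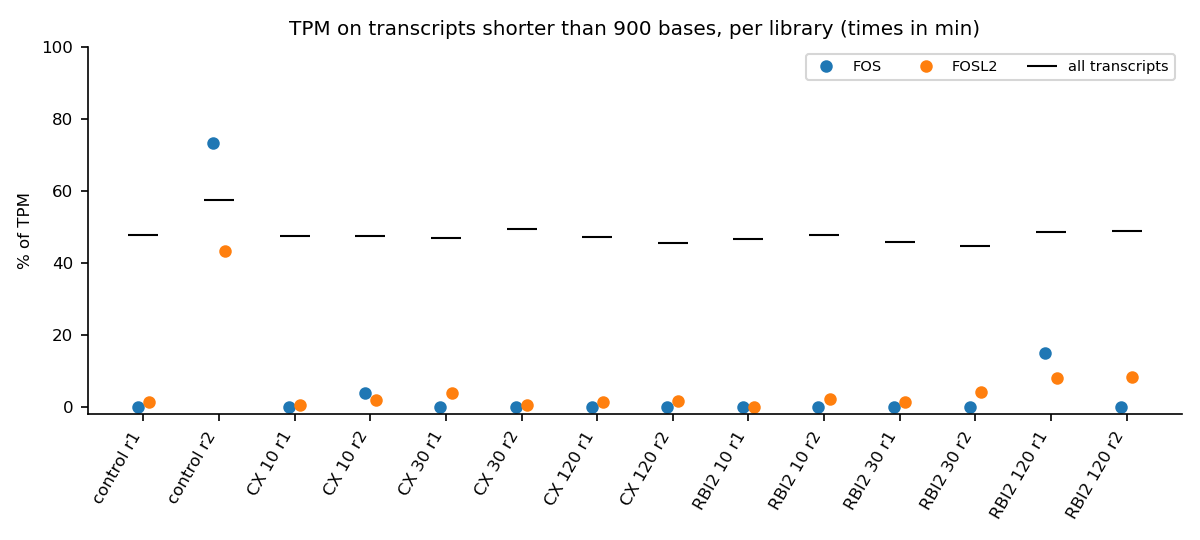
Percent of the TPM of FOS and FOSL2 on transcripts shorter than 900 bases in each library, with the share over all transcripts as a short bar (r1 and r2 are replicates, times in min). Control replicate 2 is the highest library for both genes and for all transcripts.

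Other genes of the pathway were read from lists. Of 19 other bZIP partners, 17 were tested, of 23 genes upstream of AP-1 (the JNK, ERK and p38 kinases and the factors SRF and TCF) 22, and of 26 known AP-1 target genes 23. With CX-5461 at 10 min against the control 0 of 17, 0 of 22 and 1 of 23 were called, with edgeR and with DESeq2 among those with an adjusted p, where 1.67% of all genes tested passed with edgeR, and 6, 7 and 7 had an unadjusted p under 0.05 with edgeR, as did 22.6% of all genes tested. The medians of the lists were -0.06, -0.05 and -0.10, near that of all genes tested. The called target was HMGA2, a chromatin protein of mesenchymal cells, which fell. HMGA2 had 27.8 and 41.4 CPM in the control and 16.1 and 17.5 CPM with CX-5461 at 10 min, which is -1.04 ± 0.17 on the log2 scale (edgeR, adjusted p = 0.00537). Without control replicate 2 it was -0.73 and without CX-5461 replicate 1 of 10 min -0.96, no longer past the limit on the fold.

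On adjusted p alone 3 of 17 partners, 1 of 22 upstream genes and 2 of 23 targets passed in this comparison, where 4.76% of all genes tested passed. They were named after their values were seen. MAFK (0.96) and MAFF (0.66), small MAF proteins that pair with other bZIP factors, were higher, and ATF4 (-0.51), the factor of the integrated stress response, was lower. SRF (0.42), which drives FOS with its TCF partners, was higher, and HBEGF (-0.55), a ligand of the EGF receptor, was lower beside HMGA2. In the direct comparison at 10 min 0 genes of the lists were called by edgeR, where 1.12% of all genes tested passed. DESeq2 called 0 among those with an adjusted p. With edgeR 6, 2 and 7 genes had an unadjusted p under 0.05, as did 14.1% of all genes tested. On adjusted p alone, which 3.14% of all genes tested passed, ATF4 (0.46), HBEGF (0.67) and the cytokine gene LIF (0.90) were higher with RBI2. With RBI2 at 120 min against the control, 6 genes of each list passed on adjusted p alone, 3 higher and 3 lower, where 17.8% of all genes tested passed. The AP-1 targets among these included MMP14 (0.56), a membrane-bound matrix metalloproteinase, and CCND1 (0.33), the gene of cyclin D1, which were higher, and HMGA2 (-0.53), MMP1 (-0.31), an interstitial collagenase, and VIM (-0.22), an intermediate filament gene, which were lower. The remaining call in the 15 comparisons was MAPK10, a gene of a JNK kinase, which lay at 0.489 ± 0.08 CPM with RBI2 at 10 min and 1.60 ± 0.51 CPM at 120 min (-1.68 on the log2 scale, edgeR's adjusted p = 0.0292), and to which DESeq2 gave no adjusted p. In that comparison 0.733% of all genes tested were called. MAPK10 was named after its values were seen.

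The genes most like FOS and JUN were taken as those with the highest Pearson correlation of log2 CPM over the 14 libraries, among 10570 genes with a mean of at least 5 CPM. For FOS these were ID2 (0.96), TNFRSF10D (0.96), FAM53C (0.95) and IRF1 (0.93). ID2, an inhibitor of basic helix-loop-helix factors, had 5.60 ± 0.44 CPM (SD, n = 2) in the control, 88.9 ± 4.70 with CX-5461 at 10 min, 17.0 ± 0.27 with CX-5461 at 120 min and 12.6 ± 0.06 with RBI2 at 10 min. FAM53C had 57.8 ± 3.89, 152 ± 0.98, 79.8 ± 1.72 and 65.1 ± 2.62 CPM in the same groups. TNFRSF10D, a decoy receptor of TRAIL, went from 28.3 ± 2.08 to 51.5 ± 2.91 CPM and IRF1, an interferon response factor, from 19.7 ± 4.18 to 44.4 ± 1.89 CPM between the control and CX-5461 at 10 min.

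For JUN the most alike were MYC (0.97), CCN1 (0.97) and PARS2 (0.97). MYC, the growth regulator, had 185 ± 10.0 CPM in the control and 33.6 ± 1.89 with CX-5461 at 10 min. CCN1, a matricellular protein gene, had 679 ± 8.29 and 92.3 ± 2.42 CPM. PARS2, a mitochondrial tRNA synthetase, had 6.41 ± 0.60 and 3.12 ± 0.22 CPM. With Spearman's correlation 1 of the 4 genes was the same for FOS and 1 of 4 for JUN. Likeness over these libraries is a description, and it was not computed without those of CX-5461 at 10 min.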

How the data were processed

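Poly(A) RNA of MDA-MB-231 cells was sequenced from stranded libraries on the HiSeq2000. The authors filtered out reads of ribosomal DNA by alignment and quantified the rest on GRCh38 transcripts, with Salmon 1.3.0 per the submitters' processing notes. The deposited values are estimated counts of reads per transcript, neither normalized nor rounded, and TPM, which the authors made with Salmon per transcript and library. The deposited lengths and effective lengths served for the length offset.

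Estimated counts were summed per gene over GENCODE release 44 (225662 of 228754 transcripts matched, and 1.03% to 1.13% of a library's reads were left out) and rounded. They were analysed with edgeR 4.0.16 in R 4.3.3: TMM scaling, filterByExpr with a minimum count of 10, and robust quasi-likelihood F tests with all 14 libraries in 1 model of 7 groups, so that every comparison shares 1 estimate of the spread. The common biological coefficient of variation was 12.3%. A gene was called at a Benjamini-Hochberg adjusted p under 0.05, over the 15426 genes tested, with a log2 fold change of 1 or more in either direction. Intervals are 95% intervals of the fitted fold change, with the SE taken from the fold change and its F statistic. Where edgeR's p-value is larger than this F statistic alone gives, the interval is narrower than the p-value implies. This holds for FOS and in places for FOSB. FOS in RBI2 at 30 over 120 min had an interval of -0.69 to -0.01 at an unadjusted p of 0.0909 from edgeR. TPM were summed per gene and described without a test. The procedure was run on simulated counts, drawn with the dispersions fitted to these data. Those counts held no deviating control library and no shift in transcript length or GC content, so they do not show how it handles these.

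The alternatives were DESeq2 1.42.0, DESeq2's size factors, no filter, no fold limit, a transcript length offset, corrected GC content and length, a block for the replicate number (also with that correction), only the 2 groups compared in the model, each library left out in turn, TMM-scaled reads per kilobase for the levels per length, and Spearman's correlation for likeness. The summary of transcripts under 900 bases was added after the transcript shares were seen. The members and lists were chosen with earlier results of these data known. The rule for named genes took the 8 members, genes of the other lists called against the control or between the compounds (at most 6 per list), and the 4 genes most like FOS and the 4 most like JUN, of which 1 is not reported here. Genes of the lists that passed on adjusted p alone, and MAPK10, fall outside this rule, and their naming followed from their values. Promoter sequences come from RefSeq (GRCh38.p14).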

Additional observations from a re-analysis of the deposited data

Results flagged for a closer look

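At 10 min 4 of the 8 members differed between the compounds at the same dose by a direct test, where 1.12% of all genes tested passed. At 30 and 120 min 0 of 8 were called, where 0.013% and 1.71% passed. In RBI2 over CX-5461 at 10 min, edgeR's quasi-likelihood test gave log2 fold changes of -2.15 for FOSB, -1.37 for FOS, -1.13 for ATF3 and 1.19 for JUN, with adjusted p between 1.1e-05 and 0.00401. Both RBI2 libraries lay on the same side of both CX-5461 libraries for all 8 members, called or not, as for 57.3% of all genes tested.

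Within CX-5461, 10 min differed from 30 min for 4 members and from 120 min for 1 member by the same test, and 30 and 120 min for 0, where 0.895%, 0.953% and 0.013% of all genes tested passed. At 10 min over 30 min the log2 fold changes were 2.67 for FOSB, 1.93 for FOS, 1.38 for ATF3 and -1.17 for JUN, and at 10 min over 120 min that of FOSB was 2.19. These comparisons share the CX-5461 libraries of 10 min with the comparison above. FOS had 166 and 185 and FOSB 174 and 200 estimated reads in those libraries.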

How the results depend on the processing

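For the 16 called pairs of a member and a comparison, 319 of 351 alternative values kept direction and call, 32 kept direction only and 0 reversed. With only the 2 groups compared in the model, 0 members were called in CX-5461 at 10 min against the control (6 in the pooled model). FOS in CX-5461 at 120 min against the control was not called with the length offset, the replicate block or only 2 groups, which gave 0 members each, and DESeq2 gave it no adjusted p. In CX-5461 at 10 min over 120 min DESeq2, its size factors, no filter and only 2 groups each gave 3 members, and no fold limit gave 6. In RBI2 over CX-5461 at 120 min no fold limit gave 3. The cause was not tested.

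Leaving out 1 library at a time gave 4 to 6 members for CX-5461 at 10 min against the control, 0 to 2 for CX-5461 at 120 min against the control (2 without control replicate 1, and 0 without any other library), 3 to 4 for RBI2 over CX-5461 at 10 min, 4 to 5 for CX-5461 at 10 over 30 min, 1 to 3 for CX-5461 at 10 over 120 min, 5 to 8 for any difference, and 0 in the other 10 comparisons. HMGA2 in CX-5461 at 10 min against the control was at -0.56 with the length offset and was not called. It was also not called when GC content and length were corrected for (-0.88), without or with the replicate block. With only the 2 groups compared in the model its adjusted p from edgeR was 0.333.

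The replicate numbers did not pair the libraries. Over 21 pairs of groups the correlations of same-numbered libraries lay between -0.18 and 0.18, and 3 were over 0.1. With the replicate block 6 members were called for CX-5461 at 10 min against the control, 4 for RBI2 over CX-5461 at 10 min and 0 for CX-5461 at 120 min against the control. The median log2 fold change of all genes lay between -0.06 and 0.06 in every comparison and scaling. The order of the members per length was the same with TMM-scaled reads per kilobase. FOS and FOSB had the fewest reads of the members, with as few as 28 and 19 estimated reads in a library, and 2 libraries per group limit every comparison.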
